A study of Mus musculus with 10 samples.

Results

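Phagocytic and reactive glia genes were examined in the prefrontal cortex of Arid1b+/- mice (HT) and wild-type mice (WT). The genes were Spp1, Gpnmb, Clec7a, Itgax, Lgals3, Lyz2, Hmox1, A2m, Lcn2 and C3, and were taken from the table by their symbols. They are 10 of the 18216 genes in the table. They had been selected on their normalised counts in 1 HT sample, HT5, where they rose sharply, so the values of HT5 are a description and were not tested. The study compared 5 HT and 5 WT males of the C57BL/6N strain at postnatal day 10, with 1 RNA-seq library per mouse. The HT mice carry 1 Arid1b copy in which exon 5 was targeted with CRISPR/Cas9, and the WT mice are their unedited counterparts. Arid1b encodes a DNA-binding subunit of the BAF chromatin-remodelling complex. All mice came from crosses of HT males with WT females.

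Microglia are the resident macrophages of the brain. In a resting state they express genes such as P2ry12 and Tmem119. When they engulf dying cells, myelin or debris they switch on another set that includes Spp1, Gpnmb, Clec7a, Itgax and Lgals3, and microglia of this kind are also known from developing white matter in the first postnatal weeks. Astrocytes answer injury or inflammation by raising Gfap and secreted proteins such as Lcn2, Serpina3n and complement C3. Hmox1, which breaks down heme, is a general marker of oxidative or heme stress.

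The values were normalised counts, which are read estimates per gene divided by a size factor of each sample, and the sequencing depth behind them is unknown here. Totals ranged from 31106330 to 32106791 per sample. Arid1b, the targeted gene, lay between 1767 and 1987 in HT and between 2662 and 3018 in WT, so every library matched its label at this gene. HT was lower by a log2 fold change of -0.59 (SE 0.05) in limma, with an adjusted p of 9.96e-05. The tissue label could not be checked, because there were no samples of another tissue. As a description, 10 genes of excitatory neurons were summed, among them Slc17a7 and Camk2a. Their summed value was 194299 in HT5 and 166696 to 203356 in the other 9 samples. The share of mitochondrially encoded transcripts was 6.61% in HT5 and 5.15% to 8.43% in the others. Nothing in the labels gives a litter or a sequencing batch, so p-values measure the spread between these mice.

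The members lie on 8 chromosomes of the GRCm38 build. Gpnmb, A2m and Clec7a are on chromosome 6, with starts far apart at 49036546, 121635376 and 129461591. C3 is on chromosome 17 (57203970 to 57228136), the chromosome of Arid1b (4994332 to 5347656). The annotation lists Clec7a as a polymorphic pseudogene and the other 9 as protein-coding. RefSeq windows before the transcription start (GRCm38.p6) were found for 8 members, and none for Hmox1 and A2m. The 250 bases before the start were searched on both strands for 4 short motifs of factors or complexes known from glial and inflammatory promoters: AP-1 (TGANTCA), C/EBP (TTGCNNAA), ETS factors such as PU.1 (GAGGAAG) and the TATA box (TATAAA). No match overlapped another. Among 10 windows of members, AP-1 was found in 1 (Itgax), C/EBP in 3 (Spp1, Lcn2 and C3), ETS in 2 (Spp1 and Lcn2) and the TATA box in 1 (Spp1). Among all 32851 windows the shares were 6.75%, 9.56%, 10.6% and 12.4% in the same order. These letters are matches in sequence and not sites of binding. The TATAAA match of Spp1 began 211 bases before the annotated start of its window, and its role was not tested. Spp1 has a pair of annotated starts, and its C/EBP match lay in the window of the second, which is not printed. The windows of the 4 members with a match are shown 5′ to 3′ on the strand of the gene, with each match in capitals, because these matches are what the search found before the members’ starts.
Spp1 (chr5:104434861-104435110, plus strand): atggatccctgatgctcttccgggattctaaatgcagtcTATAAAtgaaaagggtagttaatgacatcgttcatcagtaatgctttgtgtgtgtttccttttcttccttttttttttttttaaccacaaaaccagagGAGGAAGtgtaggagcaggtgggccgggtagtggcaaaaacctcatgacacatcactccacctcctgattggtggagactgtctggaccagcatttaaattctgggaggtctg
Itgax (chr7:128129300-128129549, plus strand): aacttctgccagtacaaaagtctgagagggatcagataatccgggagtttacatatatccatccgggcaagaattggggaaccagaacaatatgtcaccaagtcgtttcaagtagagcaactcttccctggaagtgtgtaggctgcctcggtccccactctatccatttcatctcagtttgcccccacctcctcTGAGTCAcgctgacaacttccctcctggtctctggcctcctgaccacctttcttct
Lcn2 (chr2:32387740-32387989, minus strand): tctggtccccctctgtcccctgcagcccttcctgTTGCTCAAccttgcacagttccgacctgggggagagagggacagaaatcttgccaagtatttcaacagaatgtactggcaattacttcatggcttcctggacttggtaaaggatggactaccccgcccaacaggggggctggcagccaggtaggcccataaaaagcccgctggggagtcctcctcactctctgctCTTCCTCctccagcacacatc
C3 (chr17:57228137-57228386, minus strand): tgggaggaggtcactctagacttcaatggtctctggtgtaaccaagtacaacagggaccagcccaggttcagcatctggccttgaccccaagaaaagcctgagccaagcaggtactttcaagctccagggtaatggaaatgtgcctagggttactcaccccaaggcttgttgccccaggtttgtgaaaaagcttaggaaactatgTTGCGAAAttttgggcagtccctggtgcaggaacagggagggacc

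Genes of phagocytic microglia and macrophages were described first. Spp1, which encodes the secreted phosphoprotein osteopontin, had normalised counts of 48.7, 108, 53.0, 69.9 and 1242 in HT1 to HT5. In WT1 to WT5 Spp1 had 42.5, 65.9, 92.3, 107 and 60.2. HT5 was 11.4 times as high as the next sample, HT2, after 1 was added to both values, and the other HT mice overlapped with WT. Gpnmb, a transmembrane glycoprotein of phagocytes that act on lipid-rich cargo, had 8.62, 20.6, 29.7, 11.3 and 705 in HT1 to HT5. In WT1 to WT5 Gpnmb had 11.9, 29.2, 21.6, 29.2 and 17.98. Its ratio of HT5 to the next sample (23.0) was the highest of the 10 members, and 79.7% of the sum over all samples came from HT5.

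Clec7a, the beta-glucan receptor Dectin-1, had 4.05, 0.815, 14.8, 6.39 and 124 in HT1 to HT5. Clec7a in WT1 to WT5 had 0.928, 3.99, 2.39, 2.94 and 6.23. Outside HT5 the values stayed below 15, with HT3 the highest of them. Itgax, which encodes integrin alpha X (CD11c), had 8.44, 15.6, 8.41, 5.20 and 90.4 in HT1 to HT5. In the WT samples Itgax had 0, 5.74, 4.74, 6.34 and 6.80. HT1, HT2 and HT3 also lay above the highest WT value of this gene, by far less than HT5, and HT4 lay inside the WT range. Lgals3, the galectin that binds damaged lysosomes and glycoproteins, had 1.85, 7.69, 9.53, 1.95 and 66.6 in HT1 to HT5. Lgals3 in WT1 to WT5 had 6.98, 7.11, 3.99, 3.46 and 9.51, and HT1 and HT4 were below all of them. Lyz2, the lysozyme of macrophages and other myeloid cells, had 56.3, 117, 58.4, 105 and 468 in HT1 to HT5. In the WT samples Lyz2 had 68.2, 69.5, 70.1, 77.0 and 74.2, a narrow range with HT2 and HT4 above it and HT1 and HT3 below it.

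HT5 was also the highest sample for Hmox1 and for the secreted members. Hmox1, heme oxygenase 1, had 91.8, 112, 97.6, 120 and 602 in HT1 to HT5. Hmox1 in WT1 to WT5 had 95.6, 94.97, 84.9, 91.5 and 114. The 9 samples other than HT5 kept within 84.9 and 120, so this was one of the most even members outside HT5. A2m, the protease inhibitor alpha-2-macroglobulin, had 88.7, 138, 88.7, 109 and 704 in HT1 to HT5. In the WT samples A2m had 86.9, 104, 105, 98.7 and 93.4, and HT2 and HT4 lay above all of them. Lcn2, lipocalin 2, an iron-binding acute phase protein of reactive astrocytes and of neutrophils, had 2.85, 7.87, 5.48, 8.92 and 62.6 in HT1 to HT5. Lcn2 in WT1 to WT5 had 2.04, 0, 2.62, 8.28 and 5.48, and the other 4 HT mice overlapped with them. C3, the central complement component, had 15.3, 8.07, 2.04, 15.1 and 79.9 in HT1 to HT5. In the WT samples C3 had 5.08, 4.06, 6.08, 7.55 and 14.4. HT1 and HT4 were just above the highest WT sample for C3, and HT3 was the lowest of all.

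**Figure D1:**
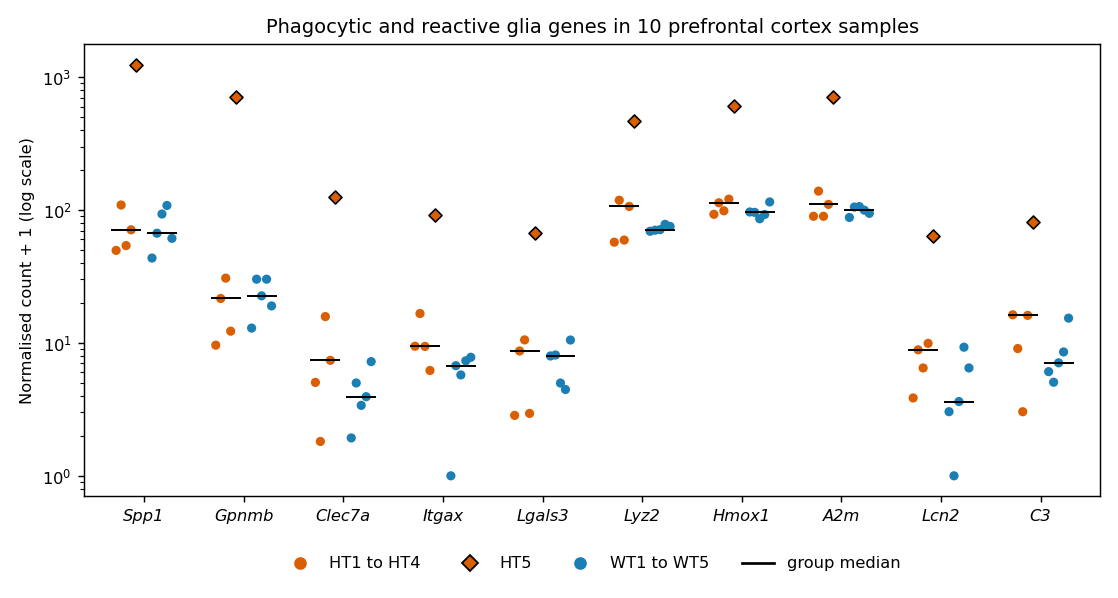
Normalised counts plus 1 (log scale) of the 10 genes in each mouse, with HT in orange, WT in blue, HT5 as a diamond and group medians as black lines. HT5 is the highest of the 10 samples for 10 of 10 genes, at 1242 for Spp1 and 705 for Gpnmb, and the other points of both genotypes overlap.

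HT5 was the highest sample for 10 of 10 members. The sum over the members was 4143 in HT5, 327 to 536 in the other HT mice and 320 to 432 in WT. The next highest sample was HT2 for 4 members, HT3 for 3, HT4 for 2 and HT1 for 1. Compared with the median of the other 9 samples, HT5 was 6.24-fold (Hmox1) to 32.7-fold (Gpnmb) higher, with 1 added to both values. In bulk tissue, more cells of a type and more RNA per cell cannot be told apart.

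Levels of different genes were compared per kilobase of annotated exon. Over the 9 samples other than HT5, the median level per kilobase was 54.6 for Hmox1, 53.3 for Lyz2 and 39.97 for Spp1, and their ranges (48.5 to 68.3, 42.7 to 89.2 and 25.8 to 65.6) overlapped. A2m followed at 14.1 per kilobase (12.4 to 19.6). The other 6 members had median levels of 3.76 (Lgals3), 3.16 (Gpnmb), 2.09 (Lcn2), 1.51 (Clec7a), 1.47 (C3) and 1.32 (Itgax) per kilobase, again with overlapping ranges. In HT5 the order by level per kilobase was Spp1 (753), Lyz2 (355), Hmox1 (344), Gpnmb (108), A2m (100.3), Clec7a (46.8), Lgals3 (35.8), Lcn2 (23.9), Itgax (18.8) and C3 (15.5). Spp1 was thus the highest by this measure in HT5. Outside HT5 the order among Hmox1, Lyz2 and Spp1, or among the lowest 6 members, is not settled because their ranges overlapped.

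Some members share sequence with other genes, which makes their read estimates less certain. Of the 31-base words of Lyz2 transcripts, 32.8% also occur in transcripts of other genes, mostly its neighbour Lyz1, which was not analysed here. The share was 14.3% for Spp1, mostly with the gene model Gm42793, and 10.7% for Itgax, mostly with Itgad. Itgad had a value of 4.16 in HT5 and 2.33 to 24.9 in the other samples, so it was not high in HT5. For the other 7 members the share was at most 0.708% (Gpnmb).

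The number of genes that stood out in each library gave the background for HT5. Of the 16781 genes whose mean reached 10, 40 (0.238%) were at least 2-fold above the highest of the other 9 samples in HT5, against 2 to 9 genes in each of the other samples. The 10 members were among these 40 by their choice, and ranked 1 to 9 and 12 by this ratio. At least 2-fold above the median of the other samples were 271 genes (1.61%) in HT5 and 51 to 202 in each of the others. The highest of these other counts (202) was that of HT2.

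**Figure D2:**
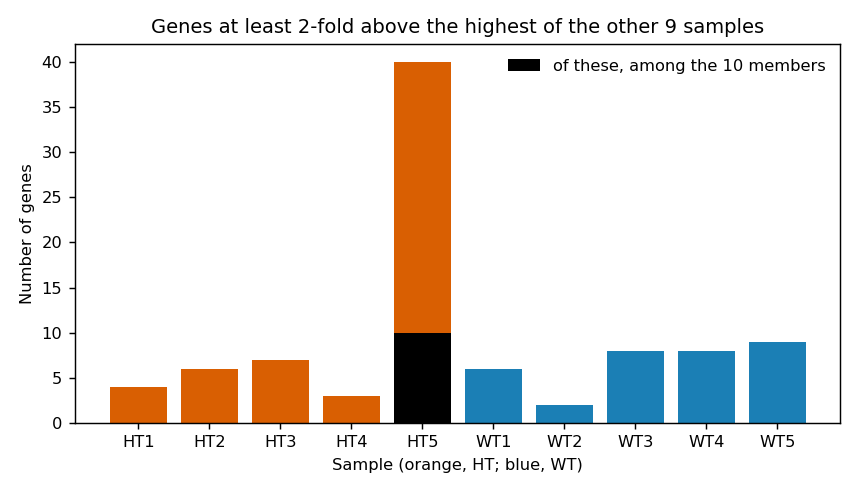
Number of genes (y axis) at least 2-fold above the highest of the other 9 samples, for each sample (x axis; HT in orange, WT in blue), with the share held by the members in black. HT5 has 40 such genes, 10 of them members, and the other samples have 2 to 9.

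The comparison of genotypes was made with and without HT5. With all 10 samples, 3 of 16781 genes (0.0179%) had a limma adjusted p under 0.05. The log2 fold changes of the members on the log2(value + 1) scale were then all positive, from 0.36 (Lgals3) to 1.71 (Itgax), with a median of 0.73 against -0.0035 over all genes tested. Since HT5 chose the members, these fold changes are given with no test. HT means were 304 ± 524 (SD, n = 5) for Spp1 and 155 ± 308 (SD, n = 5) for Gpnmb, with SDs above the means.

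Without HT5 the 4 other HT mice were compared with the 5 WT mice. The members were chosen for their rise in HT5, which is not among these 9 mice. A sharp rise in HT5 also needs lower values in the other mice, so the choice used these 9 mice indirectly. Of the 10 members, 0 had a limma adjusted p under 0.05 and 0 had an unadjusted p under 0.05. Among all genes tested 0.0238% passed with adjustment and 6.72% without it (3.51% higher in HT). The members had a median log2 fold change of 0.14, with 7 positive and 3 negative values. Itgax had the largest positive difference over these 9 mice, a rank that changed when single mice were left out. The HT mean was 9.42 ± 4.41 (SD, n = 4) and the WT mean 4.72 ± 2.75 (SD, n = 5), and 4 of 4 HT mice lay above the WT mean. On the log2 scale this was 1.07 (SE 0.60, limma adjusted p = 0.74), and the exact two-sided permutation p was 0.0635. The smallest p this permutation allows is 0.0159. The mean of Itgax without HT5 was 6.81, below the minimum of 10 that it met only through HT5. Its estimate thus rests on low values. The log2 difference fell to 0.51 when WT1, listed at 0, was also left out. It fell to 0.40 with 10 added to each value instead of 1. Lcn2 followed with a log2 difference of 0.90 (SE 0.62, limma adjusted p = 0.78), from means of 6.28 ± 2.70 (SD, n = 4) and 3.68 ± 3.23 (SD, n = 5). Its mean over the 9 mice was 4.84. The difference fell to 0.43 without WT2, listed at 0, and to 0.27 with 10 added to each value. Clec7a had 0.54 (SE 0.62, limma adjusted p = 0.86), and 3 of the 4 HT mice lay above the WT mean for Lcn2 and for Clec7a. The mean of Clec7a over the 9 mice was 4.72. Its difference fell to 0.0549 without HT3 and rose to 1.095 without HT2, where Itgax had 0.81. Lcn2 lay above Itgax without WT1 (0.83 against 0.51) and without HT1 (1.18 against 1.09).

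Spp1 and Gpnmb, the members with the highest ratios of HT5 to the next sample, had lower means in the other HT mice than in WT, by less than the spread between mice. For Spp1 the HT mean without HT5 was 69.9 ± 27.0 (SD, n = 4), the WT mean was 73.6 ± 25.9 (SD, n = 5) and the log2 difference was -0.07 (SE 0.28, limma adjusted p = 0.96). For Gpnmb these means were 17.5 ± 9.60 (SD, n = 4) and 22.0 ± 7.42 (SD, n = 5), with a log2 difference of -0.39 (SE 0.38, limma adjusted p = 0.83). Lgals3 was at -0.38 (SE 0.51, limma adjusted p = 0.88). The most precise estimates were those of Hmox1 and A2m. For Hmox1 the log2 fold change without HT5 was 0.13, with a 95% interval of -0.16 to 0.42, and for A2m it was 0.10, with an interval of -0.23 to 0.42. Both intervals include 0, and differences inside them are not excluded by these mice. For Lyz2 and C3 the log2 fold changes were 0.15 (SE 0.22) and 0.24 (SE 0.53). The HT and WT ranges overlapped without HT5 for 10 of 10 members, where 2.12% of all genes tested had no overlap.

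**Figure D3:**
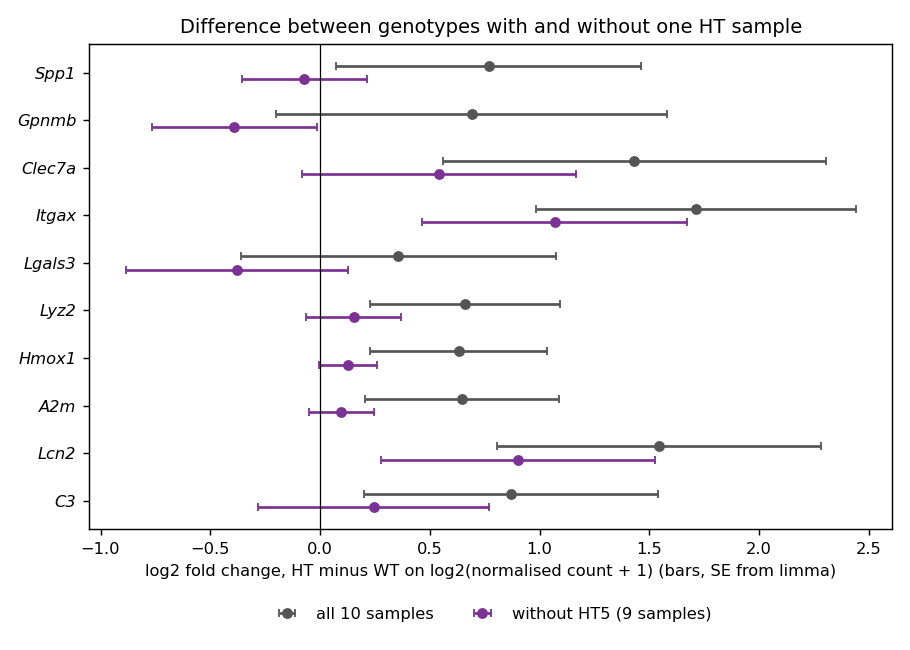
Log2 fold change of HT minus WT (x axis) for each gene, with all 10 samples (grey) and without HT5 (purple), and bars of 1 SE from limma. Without HT5 the values of Spp1, Gpnmb and Lgals3 lie below 0, and those of Lyz2, Hmox1 and A2m lie at 0.15 or less.

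A mean of at least 10 over all samples was required of a tested gene, and 10 of 10 members met it. Only 5 of them (Spp1, Gpnmb, Lyz2, Hmox1 and A2m) had a mean of at least 10 without HT5. Clec7a, Itgax, Lgals3, Lcn2 and C3 passed through HT5 alone, and their fold changes among the other mice rest on values of 15.6 or lower.

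Genes outside the members that most resembled them were taken by the ratio of HT5 to the highest other sample. The first 12 were Lilrb4a, Lrrc71, Ccl6, Ptx3, C4b, Gfap, Prg4, Serpina3n, C3ar1, Cfap126, Lbp and Wfikkn2, with ratios from 4.30 down to 2.35. Lilrb4a, an inhibitory receptor of myeloid cells, had 76.4 in HT5 and 0.550 to 17.0 in the others. Ccl6, a chemokine of myeloid cells, had 96.9 in HT5 and 8.67 to 29.0 in the others. Ptx3, a soluble pattern recognition protein, had 78.8 in HT5 and 5.46 to 25.8 in the others.

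Gfap, the intermediate filament of astrocytes, was at 3828, 5007, 3572, 4036 and 13936 in HT1 to HT5. In WT1 to WT5 Gfap was at 3426, 3458, 3072, 3359 and 3106. The other 4 HT values also lay above all WT values, and Gfap was the 1 gene of these 12 whose genotypes did not overlap without HT5, where 2.12% of all genes tested had no overlap. Without HT5, 10 of the 12 genes had a higher mean in HT than in WT on the log2 scale, as did 48.2% of all genes tested. The log2 fold change of Gfap without HT5 was 0.31 and did not pass the threshold (limma adjusted p = 0.67). This adjusted p was the lowest of the 12 genes and was shared by C4b, which had a log2 fold change of 0.60 and overlapping genotypes. C4b, a complement gene of reactive astrocytes and other glia, had 1293 in HT5 and 184 to 447 in the others. Serpina3n, a secreted protease inhibitor, had 479 in HT5 and 146 to 187 in the others, and C3ar1, the microglial receptor of the C3a fragment, had 113 and 27.7 to 44.2.

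Lists of related genes were then read in HT5. They describe this mouse and were not tested. Across all genes tested, HT5 was above every other sample for 11.2% (1875 genes). Among 31 further genes of phagocytic microglia this held for 19, and 4 were at least 2-fold above the median of the others (Lilrb4a, Ccl6, Cybb and Cd52). The share of all genes tested at that threshold, for this and the following lists, was 1.61%. Trem2, a lipid-sensing receptor, had 368 in HT5 and 147 to 279 in the others. Cd68, a lysosomal protein of phagocytes, had 322 and 126.2 to 213. Apoe, the apolipoprotein, and Lpl, lipoprotein lipase, are also part of this program, and their values in HT5 (31992 and 1269) lay inside the range of the other samples (20837 to 32845 and 1168 to 1578).

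Of 27 lysosome genes, HT5 was the highest sample for 18, with small differences and a median of 1.12 times the median of the others. The protease gene Ctsd had 10494 in HT5 and 5989 to 6963 in the others, and Grn, which encodes progranulin, 2378 and 1715 to 1909. Among 21 genes of homeostatic microglia HT5 was the highest for 9, and 0 were at least 2-fold above the median. P2ry12 had 2033 in HT5 and 1620 to 2649 in the others, and Tmem119 had 603 and 516 to 748. Both lay inside the range of the other mice. Other genes of the list lay above it in HT5, among them Ly86 (373 against at most 278) and the complement gene C1qc (1248 against at most 984), and Trem2 belongs to this list as well.

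Of 29 genes of reactive astrocytes, HT5 was the highest sample for 19 and at least 2-fold above the median of the others for 10. Besides Ptx3, Gfap and Serpina3n these included Steap4 (57.3 against 6.52 to 25.2), Timp1 (42.8 against 3.30 to 20.9) and Cd109 (139 against 35.9 to 64.4). For Cd109 the other 4 HT mice (53.5 to 64.4) also lay above WT (35.9 to 41.1), with a log2 fold change without HT5 of 0.59 that did not pass the threshold (limma adjusted p = 0.65). Among 10 general astrocyte genes HT5 was the highest for 3, with a median of 1.19 times the others. Of 15 complement and acute phase genes besides C3 and Lcn2, HT5 was the highest for 10 and 2-fold above the median for 4 (C4b, C3ar1, C2 and Serping1). Of 20 genes of the oxidative and heme response HT5 was the highest for 4, and 0 were 2-fold above the median. Nqo1, a quinone reductase, had 101 in HT5 and 49.5 to 92.1 in the others, and the ferritin gene Fth1 kept inside the range of the others. Hmox1, which belongs to the same response, was 6.24 times the median of the others in HT5, and the median of this list was 1.07 times.

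**Figure D4:**
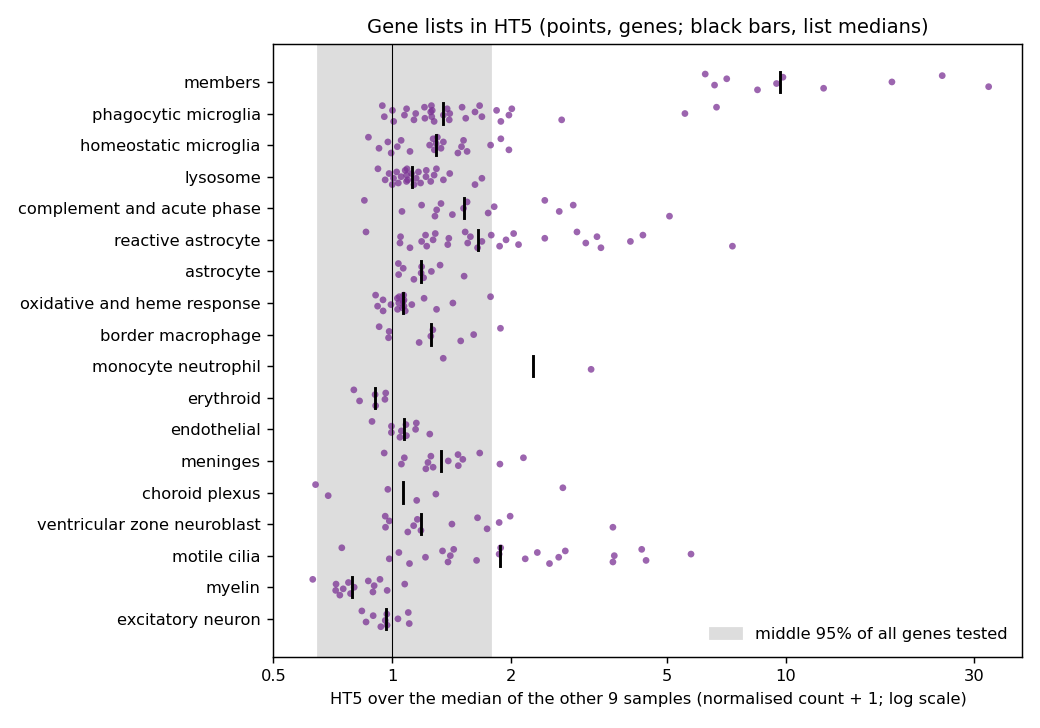
Ratio of HT5 to the median of the other 9 samples (x axis, log scale, 1 added to both) for each gene (points) of each list (rows), with list medians as black bars and the middle 95% of all genes tested in grey. The members lie between 6.24 and 32.7, reactive astrocyte genes have a median of 1.65, and erythroid, myelin and excitatory neuron genes have medians below 1.

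Markers of other cell types in HT5 were read as whole lists, and their part in the members' values was not tested. The summed value of 6 erythroid genes in HT5 (7823) lay inside the range of the others (6431 to 11320), and Hbb-bs, a beta-globin, had 3076 against 2465 to 4767. The 10 endothelial genes summed to 11121 in HT5 and 9778 to 13563 in the others. The 14 myelin genes summed to 73106 in HT5, below the other HT mice (93298 to 104586) and inside the range of WT (43790 to 108028). Of 16 monocyte and neutrophil markers 4 had a value in the table and 2 were tested. One of them, Ccr2 of monocytes, had 28.9 in HT5 and 3.33 to 14.3 in the others. The other, Csf3r of neutrophils, had 141 in HT5, inside the range of the others (82.4 to 150.4). For 9 genes of border macrophages HT5 was the highest for 3, with Mrc1 at 554 against 225 to 418. The 11 genes of this list in the table summed to 2460 in HT5 and 1137 to 1817 in the others.

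Meningeal markers were partly higher in HT5. The 14 meningeal genes summed to 7598 in HT5, 4622 to 6988 in the other HT mice and 5652 to 6575 in WT, and HT5 was the highest for 9 of 14. Col1a1, a collagen chain of fibroblasts, had 1301 in HT5 and 728 to 1258 in the others. Of 13 genes of the ventricular zone and neuroblasts HT5 was the highest for 1, and the sum of the 14 genes of this list in the table (9377) lay inside the range of the others (7080 to 10577). The gene that was highest in HT5 was Foxj1, the master regulator of motile cilia in ependymal cells, with 219 in HT5 and 73.8 to 149 in the others. Of 6 choroid plexus markers with a value, HT5 was the highest for 1, and their sum (5663) lay inside the range of the others (4994 to 6161).

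**Figure D5:**
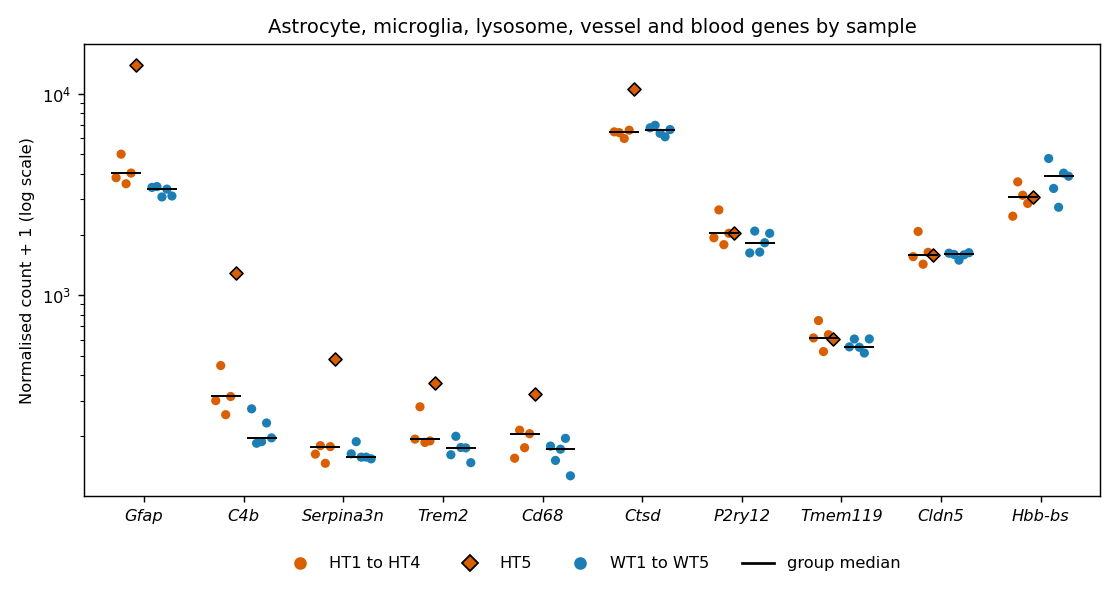
Normalised counts plus 1 (log scale) of 10 genes of astrocytes, microglia, lysosomes, vessels and blood in each mouse, with HT in orange, WT in blue, HT5 as a diamond and group medians as black lines. HT5 is far above the other samples for Gfap (13936), C4b (1293) and Serpina3n (479) and inside their range for P2ry12, Tmem119, Cldn5 and Hbb-bs.

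In the comparison of genotypes, 0 genes of these lists had a limma adjusted p under 0.05, with or without HT5. At an unadjusted p under 0.05, 8 of the 31 phagocytic microglia genes were higher in HT and 0 lower with all samples, where 4.71% of all genes were higher. Without HT5, 5 of these genes were higher and 1 lower, where 3.51% of all genes were higher. The median log2 fold change of this list was 0.15 with all samples and 0.07 without HT5. For the 29 reactive astrocyte genes, 7 were higher and 0 lower with all samples and 4 and 0 without HT5, at an unadjusted p under 0.05. The median of that list was 0.22 with all samples and 0.16 without HT5. The 10 general astrocyte genes also had medians of 0.22 and 0.16, with 6 genes higher with all samples and 3 without HT5 at that threshold. For the 21 homeostatic microglia genes, 4 were higher and 0 lower with all samples and 1 and 0 without HT5 at that threshold. Their median log2 fold change was 0.16 with all samples and 0.11 without HT5. Lists of other cell types were read as well. The myelin median was 0.37 with all samples and 0.47 without HT5, with 0 and 5 of 14 genes higher at that threshold. For ventricular zone and neuroblast genes the medians were 0.32 and 0.25. Erythroid (-0.26 and -0.25), meningeal (-0.04 and -0.16) and excitatory neuron lists (-0.02 in both) had negative medians. Over all genes the share with an unadjusted p under 0.05 was 9.23% with HT5 and 6.72% without it.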

How the data were processed

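RNA-seq values came from the prefrontal cortex of 10 mice, grouped and numbered by their titles. As the authors describe, poly-A RNA was sequenced in paired ends, Salmon 1.1.0 estimated abundance on GRCm38 with GC bias correction, tximport summed it to genes, and DESeq2 1.30.1 divided it by size factors. The deposited values are thus a normalised signal per gene. Only 13.1% to 36.3% of the low values of a sample lay on whole steps (tolerance 0.05 of a step), so reads were not recovered and no count test was run. The lowest row total was 41.7, and a filter behind it is not given in the sources used here.

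Symbols were found for 18205 of 18216 identifiers, and positions came from GENCODE M21 (GRCm38). Values were taken as log2(value + 1), and 16781 genes with a mean of at least 10 were fitted with limma 3.58.1 in R 4.3.3 (lmFit, eBayes with trend, genotype as the factor), with Benjamini-Hochberg adjustment over all of them. The same genes were fitted without HT5, the sample in which most members were highest. Exact two-sided permutation compared 4 with 5 mice. Ratios of a sample to the others had 1 added to both values. The fits were tested on simulated data. Samples correlated at 0.982 to 0.989 on the log2 scale, and no pair looked like 1 library listed again.

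The members and gene lists were chosen with earlier results of these data known, and the motile cilia list after seeing HT5. A list gene that is a member was left out of its list, and the microglia lists share some genes, such as Trem2 and Tyrobp. Named genes were the members, Arid1b, the 12 other genes with the highest ratio of HT5 to the highest other sample, and list genes past the threshold (at most 5 per list). List genes given as examples were named after their values were seen. Alternatives were pseudocounts of 0.5 and 10, no filter and a mean of at least 50, upper-quartile and quantile scaling, a replicate block, sample weights from limma, no variance trend, and each sample left out. A filter on the 9 samples without HT5 was added after seeing the data. Other steps ran in Python 3.11.15 (scipy 1.17.1, numpy 2.4.6, pandas 2.3.3), and plots were drawn with matplotlib 3.10.9.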

Additional observations from a re-analysis of the deposited data

Results flagged for a closer look

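A sample was marked where its gap to the nearest sample of its group of 5, divided by the range of the group, was above 0.71. Of 46 groups examined (the members, Arid1b and the 12 genes most like the members, in each genotype) 23 passed. Chance marks about 1 in 20 groups, but 20 of the 23 are HT5 in genes chosen for HT5, so their number and their ratios describe the choice and are not set against chance. For the members, HT5 stood apart among the HT mice with ratios of 0.95 (Spp1), 0.97 (Gpnmb), 0.886 (Clec7a), 0.878 (Itgax), 0.881 (Lgals3), 0.851 (Lyz2), 0.945 (Hmox1), 0.92 (A2m), 0.899 (Lcn2) and 0.83 (C3). Among the genes most like them, the ratios of HT5 were 0.92 (Lilrb4a), 0.872 (Lrrc71), 0.794 (Ccl6), 0.804 (Ptx3), 0.815 (C4b), 0.862 (Gfap), 0.746 (Prg4), 0.902 (Serpina3n), 0.831 (C3ar1) and 0.857 (Wfikkn2).

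The other 3 groups were WT groups. Ptx3 in WT4 was at 25.8, and the other WT mice had 5.46 to 9.92 (ratio 0.781). Serpina3n in WT2 was at 187 against 153 to 163 (ratio 0.726). Cfap126 in WT4 was at 1.41 against 6.73 to 8.49 (ratio 0.751).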

How the results depend on the processing

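Without HT5, 0 members passed under any alternative run. Only 5 members (Spp1, Gpnmb, Lyz2, Hmox1 and A2m) could be fitted with a mean of at least 50 or with the minimum of 10 over the 9 mice. The smallest adjusted p of a member over all the limma fits without HT5 was 0.61 (Lcn2, with WT4 left out too). The number of genes past the threshold without HT5 (4) was 2 without the variance trend and 2 with the replicate block, and 3 to 5 when a further mouse was left out. With all samples it was 3 or 4. Arid1b had a log2 fold change of -0.61 to -0.56 when 1 mouse was left out. With all samples, leaving out HT5 turned Spp1 (-0.072 to 1.09 over the 10 fits), Gpnmb (-0.39 to 1.16) and Lgals3 (-0.38 to 0.76) negative. Without HT5, leaving out a further mouse turned the sign of Spp1 (-0.30 to 0.0802), Lyz2 (-0.0299 without HT2, up to 0.32), A2m (-0.0349 without HT2, up to 0.17) and C3 (-0.0297 without HT1, up to 0.78), and quantile normalisation turned that of C3 (-0.15). The cause was not tested. The 40 genes at least 2-fold above the highest other sample in HT5 became 25 with 10 added to both values, 15 with a mean of at least 50 and 13 at 3-fold.

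The replicate block changed no call of a member or of Arid1b. It was not run for the gene lists. Mice that share a number are not the same animal, and the correlation of their deviations was above 0.1 in 1 of 5 pairs. Without HT5 the block leaves WT5 with no partner. Among the list medians, those of border macrophages with all samples (0.03) and choroid plexus became negative with quantile normalisation (-0.04 and -0.01), and that of choroid plexus also without HT5 (-0.02). That of excitatory neurons (-0.02 in both comparisons) became positive, at 0.0013 with all samples and 0.0035 without HT5. Depth is unknown, so the spread between mice is the only measure of precision, and it is widest for the members near 10 or below.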

Other observations

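Genes of motile cilia were read after they were seen among the genes high in HT5, so they are a description. Of 22 tested genes, HT5 was the highest sample for 11, against 11.2% of all genes tested, and at least 2-fold above the median of the others for 10, against 1.61%. Cfap126, a protein of ciliary axonemes, had 45.4 in HT5 and 1.41 to 18.1 in the others, and Lrrc23, a radial spoke protein, had 74.2 and 6.28 to 35.9. Ciliated ependymal cells line the ventricles. The sum over the 25 genes of the list in the table was 3394 in HT5, 2884 to 3196 in the other HT mice and 2750 to 2910 in WT. The median log2 fold change of the list was 0.61 with all samples and 0.40 without HT5.

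Single genes also stood out in other libraries, and the 2 given here were chosen after their values were seen. Sms-ps was at 122 in HT3 and listed at 0 in the other 9 samples. Gm6565 was at 187 in WT5 and listed at 0 in the others. Gm45837 was listed at 0 in HT1, HT2 and HT4, at 23.7 in HT3 and 65.7 in HT5, and at 62.1 to 234 in WT. It passed the threshold without HT5 (limma adjusted p = 0.04) and did not with all samples.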
